A study of Mus musculus with 6 samples.

Results

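The genes described here build the neuromuscular junction, the synapse at which a motor nerve drives a muscle fibre. The list named 10 genes, Ache, Chrna1, Chrnb1, Chrnd, Chrne, Chrng, Musk, Rapsn, Ncam1 and Scn4a, and every probe set that the platform annotation assigned to 1 of them was taken by gene symbol. The annotation named 14 probe sets of 9 of these genes, among 10833 probe sets of 8251 genes in all, and named none for Scn4a, the sodium channel of the fibre membrane, which was not analysed here. The list was chosen by readout: it was selected on earlier results from these arrays, among them the low Ache signal of the eccentric pool, so the differences between pools below are a description and carry no test.

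The samples were tibialis anterior muscles, from the front of the mouse shin, on 6 Affymetrix MGU74Av2 arrays. For the eccentric pool, muscles were lengthened while active in 50 contractions and collected 48 h later. For the isometric pool, 50 contractions were made at fixed length, also 48 h before collection. The control pool came from contralateral legs, which were not rested: they had contracted as often as a torque measurement required, and the labels do not say which exercise the other leg of those animals had done. Each pool combined the RNA of 4 animals and was divided over 2 arrays, A and B, and the labels used here name no strain, sex or age. A group is therefore 1 biological sample, every SD below is over n = 2 arrays of 1 pool, and it holds the error of labelling and hybridisation but not the spread between animals.

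Acetylcholine released by the nerve opens a receptor of 5 subunits in the fibre membrane, and acetylcholinesterase, the product of Ache, ends the signal by splitting the transmitter. In an innervated adult fibre the receptor genes are transcribed mainly in the few nuclei under the synapse. When the nerve is cut, Chrna1, Chrnb1, Chrnd, Chrng, Musk and Ncam1 are known to be switched on along the whole fibre, while Ache transcripts fall. Chrne, which encodes the adult subunit, depends less on electrical activity than Chrng, which encodes its fetal counterpart. A denervation-like pattern would thus join high receptor, Musk and Ncam1 signals to a low Ache signal.

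Only the last element was seen. Ache was lower in the eccentric pool than in either other pool, and none of the listed junction genes that denervation raises was higher by the 2-fold rule in any comparison. This rule asked for a mean log2 difference of at least 1, that is 2-fold, and for the same direction whichever of the 4 pairs of arrays, 1 from either pool, was compared. Signals below a floor of 120.8, the 40th percentile of all values, were set to the floor before log2 was taken, and a probe set entered a comparison when both arrays of at least 1 of its pools lay above the floor. Of the 14 probe sets 6 lay above the floor on all 6 arrays, 5 on some and 3 on none. Musk and Chrnd, which denervation raises, entered no comparison, and Chrng lay near the floor. A rise of these genes that stayed below the floor would not be seen. Between the eccentric and the control pool 8 entered, 2 were called lower (Ache and 1 probe set of Chrne) and 0 higher. Over all probe sets that entered this comparison, 1.13% were called lower and 5.0% higher. Between the isometric and the control pool 8 entered and 0 were called, where 0.908% of all were called higher and 0.363% lower. Between the eccentric and the isometric pool 7 entered, 0 were called higher and Ache alone lower, where 1.73% of all were called higher and 0.631% lower.

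**Figure D1:**
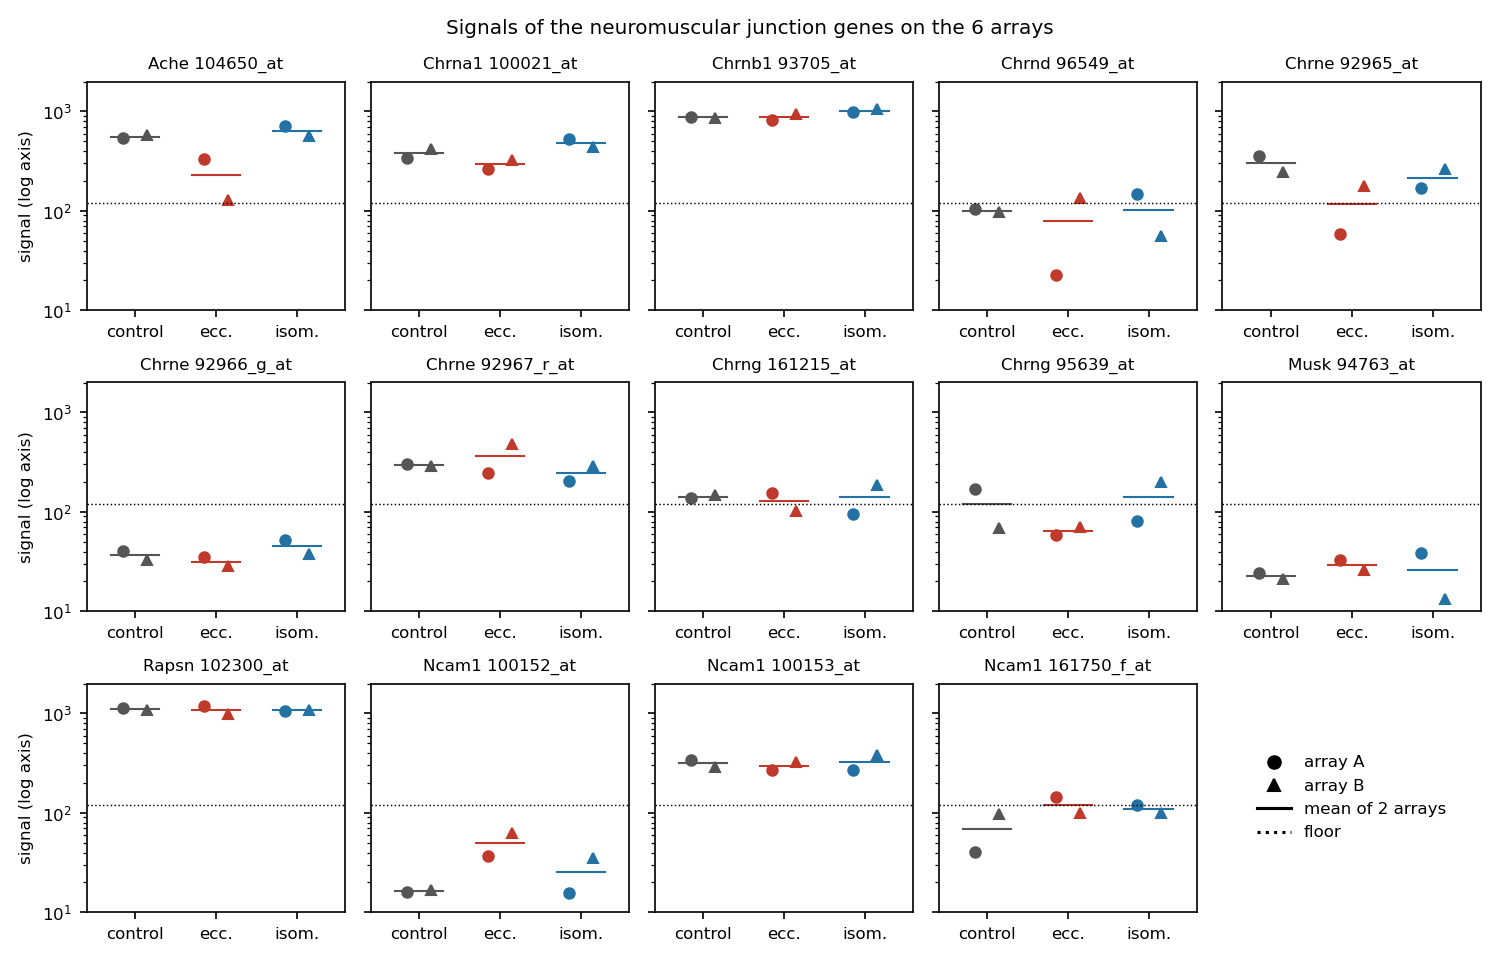
Deposited signal (log axis) of each of the 14 probe sets on the control, eccentric (ecc.) and isometric (isom.) arrays. Circles are arrays A, triangles arrays B, bars the mean of the 2 arrays, and the dotted line the floor of 120.8. Both eccentric Ache signals lie below the other 4, and the 2 eccentric arrays stand far apart.

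Ache had signals of 536.4 and 576.6 on control arrays A and B, 331.8 and 129.4 on eccentric arrays A and B, and 718.0 and 560.5 on isometric arrays A and B. Both eccentric arrays lay below all 4 others, and the isometric and control arrays overlapped. The mean was 556.5 ± 28.4 for control and 230.6 ± 143 for eccentric arrays, and the isometric pool was 0.19 above control on the log2 scale. The log2 difference was -1.42 between the eccentric and the control pool, with array pairings from -2.16 to -0.69, and -1.61 between the eccentric and the isometric pool, with pairings from -2.47 to -0.76. As ratios of geometric means these are 2.68-fold and 3.06-fold lower. In bulk RNA, fewer fibres or synapses and less transcript in each cannot be told apart.

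The size of the Ache difference rested on 1 array. Eccentric A was 2.56 times eccentric B, although both were hybridised with the same pooled RNA. Their log2 gap of 1.36 compares with an SD of 0.279 over the 6359 probe sets above the floor on both eccentric arrays, of which 0.16% had a larger gap. Among the 1577 of these within 0.5 log2 units of the level of Ache, the SD was 0.382 and 0.25% had a larger gap. Without eccentric B the log2 difference was -0.75 against control and -0.94 against the isometric pool, both under the 2-fold rule. Ache kept its direction and its call without any other single array, and without control A and isometric B together.

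**Figure D2:**
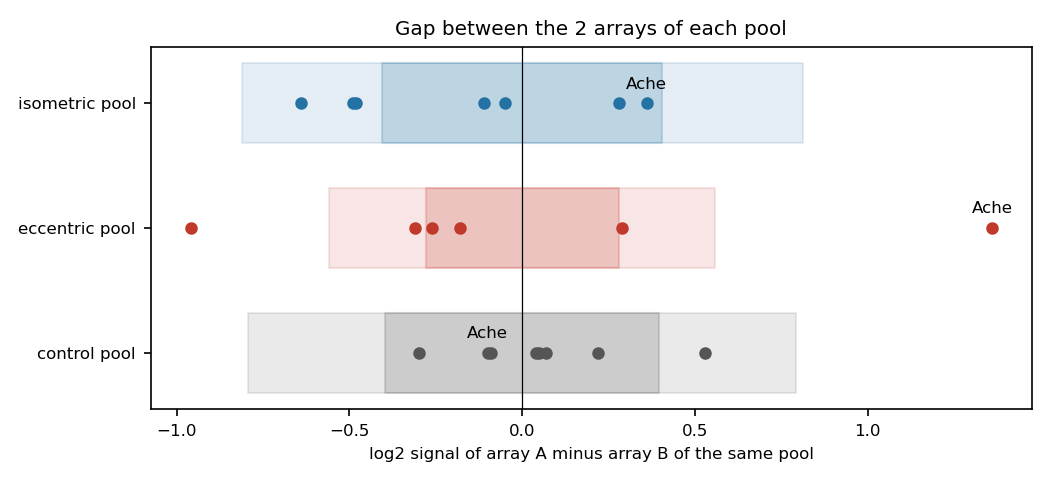
Log2 signal of array A minus array B of the same pool (x axis) for every neuromuscular junction probe set above the floor on both arrays of that pool. Dark and light bands span 1 and 2 SD over all such probe sets (SD 0.397 for control, 0.279 for eccentric, 0.406 for isometric). Ache lies inside 1 SD in the control and isometric pools and at 1.36 in the eccentric pool, outside its band. The eccentric point at -0.96 is probe set 92967_r_at of Chrne.

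Chrna1 encodes the alpha subunit, which binds acetylcholine and is present in both the fetal and the adult receptor. Its signals were 339.2 and 418.6 in the control pool, 264.9 and 328.6 in the eccentric pool and 527.2 and 434.3 in the isometric pool. The 3 pools did not overlap: both eccentric arrays were the lowest and both isometric arrays the highest. The log2 differences were nonetheless under the 2-fold rule, at -0.35 for eccentric against control, 0.34 for isometric against control and -0.70 for eccentric against isometric. For eccentric against control the array pairings ran from -0.66 to -0.05. Array A minus array B was -0.30 in the control pool and -0.31 in the eccentric pool, about as large as the difference between these pools. A rise of Chrna1 in the eccentric pool was not seen.

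Chrnb1 encodes the beta subunit, through which the receptor is anchored to the scaffold. It had 887.2 and 860.4 in the control pool, 824.2 and 933.0 in the eccentric pool and 980.9 and 1062.2 in the isometric pool. The eccentric and control arrays overlapped, with a log2 difference of 0.01 between pools, while both isometric arrays exceeded all 4 others, by 0.22 over control. Taken over the probe sets that entered, pools did not overlap, with the isometric arrays above the control arrays, for 2 of 8 (Chrna1 and Chrnb1), where 18.6% of all probe sets did so, and the reverse held for 1 (92967_r_at of Chrne), where 19.2% did. Eccentric arrays lay below control arrays without overlap for 3 of 8 (Ache, Chrna1 and 92965_at of Chrne) against 31.0% of all, and above them for 0 against 30.4%. Eccentric arrays lay below isometric arrays for 3 of 7 (Ache, Chrna1 and Chrnb1) against 24.3% of all, and above them for 0 against 28.2%. With so few probe sets these shares do not set the genes apart from the background.

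Chrne and Chrng encode alternative subunits, and the exchange of gamma for epsilon marks the maturing synapse. Probe set 92965_at of Chrne had signals of 355.7 and 245.5 in the control pool, 58.8 and 176.4 in the eccentric pool and 168.2 and 262.4 in the isometric pool. Both eccentric arrays lay below both control arrays, eccentric A under the floor, while isometric and control arrays overlapped, as did isometric and eccentric arrays. Its floored log2 difference of -1.02 for eccentric against control was just inside the 2-fold rule and fell to -0.75 without control A and to -0.74 without eccentric A. A second probe set of the gene, 92967_r_at, did not share the direction. It had 300.2 and 290.4 in the control pool, 245.4 and 476.4 in the eccentric pool and 206.2 and 288.0 in the isometric pool, a log2 difference of 0.21 for eccentric against control with overlapping arrays. The third, 92966_g_at, stayed between 28.3 and 51.8, below the floor on all arrays. The probe sets of Chrne thus disagreed, and no change of the gene can be stated.

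Chrng stayed near the floor. Probe set 161215_at had 137.8 and 147.1 in the control pool, 156.6 and 102.9 in the eccentric pool and 94.5 and 185.2 in the isometric pool. The pools overlapped, with a log2 difference of -0.05 for eccentric against control. Probe set 95639_at ranged from 58.5 to 200.6, lay above the floor on control A and isometric B alone, and entered no comparison. Chrnd, the delta subunit common to both receptor forms, ranged from 22.7 to 146.9 and lay above the floor on eccentric B and isometric A alone, so it entered none either.

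Promoter sequence is shown for 3 of these genes: Ache and Chrne, which hold the probe sets called lower, and Chrna1, whose pools did not overlap. RefSeq promoters in the GRCm38.p6 build were found for 7 of the 10 genes (Ache, Chrna1, Chrnb1, Chrne, Chrng, Musk and Scn4a), and the 250 bases before the annotated start were used. Capitals mark the E-box, CANNTG, the core recognised by myogenic factors such as myogenin, and the N-box, CCGGAA, recognised by the Ets factor Gabp and known from synaptic genes. Both strands were searched, and no E-box and N-box overlapped in the windows printed. The Ache window is chr5:137288004-137288253 on the plus strand, the Chrna1 window chr2:73580339-73580588 on the minus strand and the Chrne window chr11:70619195-70619444 on the minus strand, each written 5′ to 3′.
Ache: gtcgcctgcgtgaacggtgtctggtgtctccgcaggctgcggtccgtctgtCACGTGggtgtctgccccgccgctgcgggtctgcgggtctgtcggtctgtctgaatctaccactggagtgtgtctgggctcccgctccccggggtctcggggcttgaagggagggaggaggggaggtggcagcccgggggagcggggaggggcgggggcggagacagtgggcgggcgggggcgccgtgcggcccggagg
Chrna1: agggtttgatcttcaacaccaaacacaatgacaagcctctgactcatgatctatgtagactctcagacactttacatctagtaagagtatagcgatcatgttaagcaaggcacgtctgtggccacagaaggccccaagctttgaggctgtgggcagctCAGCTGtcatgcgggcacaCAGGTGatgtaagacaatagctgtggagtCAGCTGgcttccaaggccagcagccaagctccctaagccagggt
Chrne: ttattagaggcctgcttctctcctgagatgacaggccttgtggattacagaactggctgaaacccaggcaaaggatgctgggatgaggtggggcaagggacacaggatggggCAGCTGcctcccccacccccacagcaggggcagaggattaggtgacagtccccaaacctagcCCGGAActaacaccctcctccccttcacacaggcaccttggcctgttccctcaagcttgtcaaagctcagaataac

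Chrna1 held 3 E-boxes, which began 92, 73 and 44 bases before the start. Chrng, Chrnb1 and Musk also held 3 each, as did or exceeded 12.2% of the 32851 promoter windows in the table, and 66.2% held at least 1. Chrne held 1 E-box, 138 bases before the start, and was the only one of the 7 genes with an N-box, 76 bases before it, a motif found in 12% of all windows. The single E-box of Ache lay 199 bases before its start, and the Scn4a window held neither motif. These are matches of letters in a fixed window and say nothing about which factors were bound. Of the genes with 3 E-boxes, Chrna1 alone had eccentric and control arrays that did not overlap, with a difference of -0.35. Chrnb1 at 0.01 and Chrng (161215_at) at -0.05 had overlapping arrays and thus no direction, and Musk was below the floor.

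Musk, the receptor kinase that assembles the synapse on the signal of nerve agrin, gave signals of 24.1 and 21.0 in the control pool, 32.8 and 26.2 in the eccentric pool and 38.8 and 13.4 in the isometric pool. All 6 were below the floor, so they have no order. Rapsn encodes rapsyn, the scaffold that clusters the receptor. It had 1141.6 and 1087.8 in the control pool, 1201.8 and 985.5 in the eccentric pool and 1053.4 and 1094.0 in the isometric pool. Eccentric arrays overlapped with those of both other pools, and the log2 differences were -0.03 for eccentric against control, -0.05 for isometric against control and 0.02 for eccentric against isometric.

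Ncam1 encodes a cell adhesion molecule that innervated fibres confine to the synapse and denervated or regenerating fibres spread over their surface. Its brightest probe set, 100153_at, had 339.7 and 292.3 in the control pool, 269.0 and 322.3 in the eccentric pool and 269.1 and 378.2 in the isometric pool. All 3 pools overlapped, and the log2 difference for eccentric against control was -0.10. Probe set 100152_at had 15.9 and 16.8 in the control pool, 36.9 and 62.3 in the eccentric pool and 15.5 and 35.5 in the isometric pool. All were below the floor, so, as for Musk, no order was read from them. Probe set 161750_f_at, whose name marks it as possibly matching a gene family, ranged from 40.6 to 143.3, lay above the floor on eccentric A alone and entered no comparison.

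**Figure D3:**
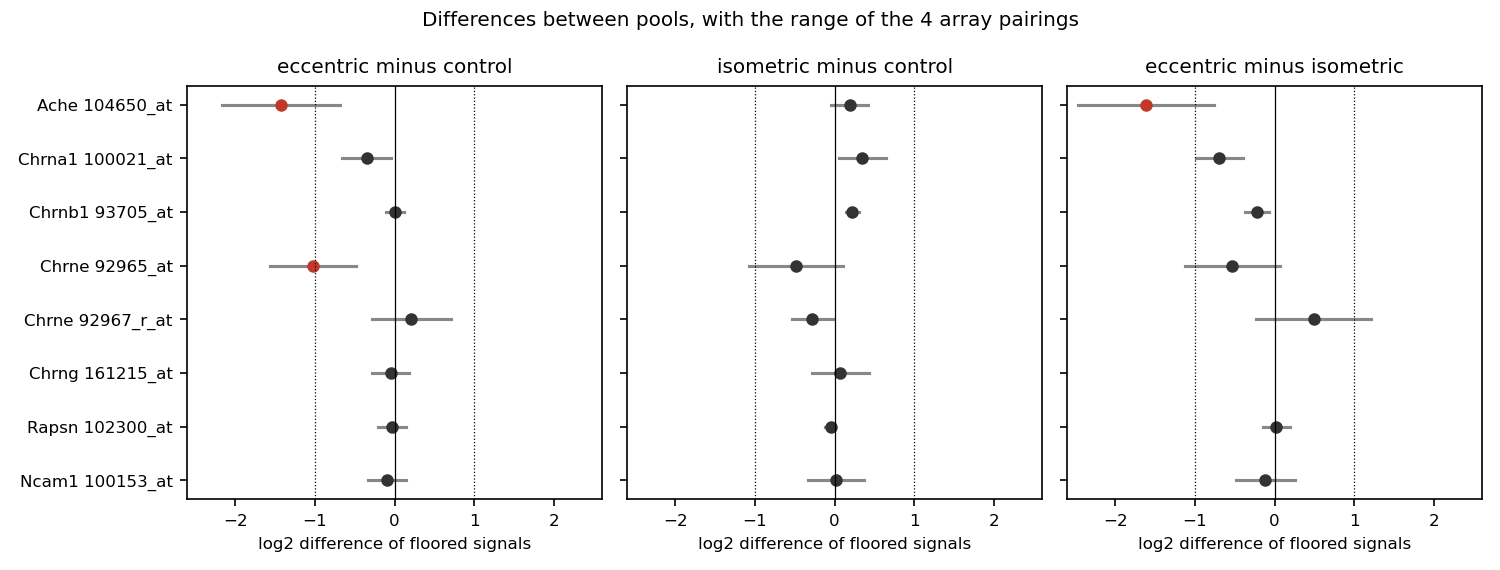
Difference between pools of mean log2 floored signal (x axis) for the 8 probe sets that entered at least 1 comparison. Grey lines span the lowest to the highest of the 4 array pairings, dotted lines mark a 2-fold difference, and red points passed the 2-fold rule. Ache is lower in the eccentric pool in both of its comparisons, Chrne 92965_at against control only, and no point passes on the right. Chrng 161215_at did not enter the comparison of eccentric with isometric.

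Among other genes of the synapse 1 was called. Of 35 further listed genes of the junction, covering nerve signals, basal lamina, scaffold and transcription, 25 were on the array and 15 entered each comparison on their brightest probe set. Between the eccentric and the control pool 1 was called higher, 0 lower and 14 not, with a median log2 difference of -0.02, equal to the -0.02 of all genes. Over all genes 5.16% were called higher and 1.06% lower, so a count of 1 in 15 is near the background. The 1 was Macf1, a large linker of microtubules and actin that many cells express, at 2132.8 ± 128 against 854.8 ± 106, a 2.50-fold difference. Agrn, which encodes agrin, had 107.7 and 330.2 in the control pool, the A array below the floor, and 408.0 and 281.5 in the eccentric pool, a log2 difference of 0.76 that was not called. Itga7, a laminin receptor of the fibre membrane, was not called. Its brightest probe set had 947.8 and 1023.4 in the control pool and 1637.1 and 1804.5 in the eccentric pool, 1.75-fold, and a second 786.8 and 973.3 against 1679.4 and 1622.8, 1.89-fold, without overlap in either. Colq, the collagen tail that fixes acetylcholinesterase in the basal lamina, had 459.6 and 306.9 in the control pool, 239.3 and 251.2 in the eccentric pool and 347.0 and 140.1 in the isometric pool. Both eccentric Colq arrays lay below both control arrays, and the log2 differences of -0.62 and -0.77 against control in the eccentric and isometric pools were not called. Utrn, the synaptic relative of dystrophin, was near or below the floor, Erbb3, a receptor for neuregulin, differed by -0.12 for eccentric against control, and Nrg1 was not analysed here. Between the isometric and the control pool 0 of 15 were called, with a median of 0.05 against -0.01 for all genes, of which 0.915% were called higher and 0.323% lower. Between the exercised pools 0 of 15 were called, with a median of 0.03 against 0.02 and 1.73% and 0.676% of all genes called.

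Other genes that denervation raises did differ in the eccentric pool, in part. Of 22 listed, 15 were on the array and 10 entered. Between the eccentric and the control pool 6 were called higher, 1 lower and 3 not, with a median of 1.05 against -0.02 for all genes, beside the same 5.16% and 1.06% of all genes. Myog, the myogenic factor that switches on receptor genes after denervation, had 464.0 and 414.7 in the control pool, 1132.3 and 766.6 in the eccentric pool and 618.5 and 1062.5 in the isometric pool. Both exercised pools lay above both control arrays and overlapped with each other. The Myog difference of 1.09 for eccentric against control passed and its 0.89 for isometric against control did not, but the 2 exercised pools differed by 0.20.

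The others called higher were Gadd45a, a growth-arrest gene, at 1.02, the metallothioneins Mt1 at 1.11 and Mt2 at 1.60, Nes, an intermediate filament of synapses and of regenerating fibres, at 2.0, and Ankrd1, a stress-responsive protein that binds titin, at 3.04. Gadd45a, Mt1, Mt2 and Ankrd1 also respond to injury, inflammation or stretch, and the list was drawn up with some of these values known, so its count is no independent evidence of denervation. Actc1, the cardiac actin that denervated fibres re-express, was lower, at 8252.6 ± 50.0 against 22314.8 ± 1.34, on a probe set that may also detect other actins. A dimmer probe set of Actc1 was also called lower for eccentric against control, at 3717.4 ± 93.3 against 21331.1 ± 257. Its log2 difference was -2.52, and it was called lower against the isometric pool too, at -2.61. Without eccentric A the calls of Myog and Gadd45a were lost, without control A that of Gadd45a, and without control B that of Mt1. The 3 not called were Myh8, a perinatal myosin, at 0.20, Myod1, a myogenic factor, with 1435.4 ± 3.04 against 1074.4 ± 17.6, and Cdkn1a, a cell cycle inhibitor, at 0.78, of which a dimmer probe set passed at 1.01. Runx1, a transcription factor strongly induced by denervation, had 34.6 and 20.7 in the control pool, 106.9 and 162.0 in the eccentric pool and 80.9 and 49.0 in the isometric pool, and since only eccentric B was above the floor it did not enter. With the floor at the 20th percentile it was called higher for eccentric against control. The embryonic myosin Myh3 was below the floor on all 6 arrays.

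**Figure D4:**
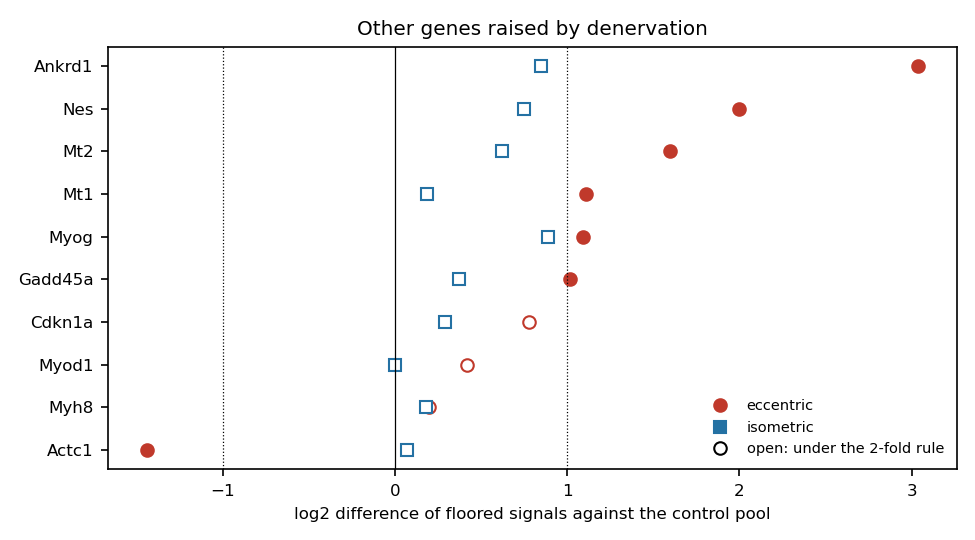
Log2 difference of floored signals against the control pool (x axis) for the 10 genes known to rise after denervation, members of the junction list left out, that entered the comparison. Red circles are the eccentric and blue squares the isometric pool, filled where the 2-fold rule was passed, and dotted lines mark 2-fold. Ankrd1 (3.04) and Nes (2.0) lead, Actc1 (-1.44) lies on the other side, and no isometric point is filled.

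Between the isometric and the control pool 0 of these 10 genes were called, and the median was 0.33 against -0.01. Between the eccentric and the isometric pool 2 of 9 were higher (Nes and Ankrd1) and 1 lower (Actc1), again beside 1.73% and 0.676% of all genes. Of 8 listed genes that denervation lowers, 6 were on the array and 4 entered. All 4 (Clcn1, Pvalb, Ucp3 and Slc2a4) had values below 0 for eccentric against control, and 0 were called. Their median was -0.42, against -0.02 for all genes. All 12 listed markers of skeletal fibres, Pvalb among them, were also below 0 in this comparison, with a median of -0.30. Of the 4, Ucp3, a mitochondrial uncoupling protein, was the 1 called between the exercised pools, as lower. It had 710.5 and 703.4 in the eccentric pool and 1328.0 and 1661.2 in the isometric pool.

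Summed markers of several cell types also differed between the eccentric and the control pool. All 12 listed markers of skeletal fibres were above the floor on all arrays. Their summed signal was 285016.9 to 354447.1 on control, 251599.7 to 260083.3 on eccentric and 249696.8 to 356243.6 on isometric arrays, 0 of 12 were called, and all 12 had eccentric values below control, with a median of -0.30. The 12 macrophage and monocyte markers summed to 5923.9 to 6213.0 on control, 19284.3 to 19327.0 on eccentric and 11053.2 to 11543.9 on isometric arrays, and 10 of the 11 that entered were called higher in the eccentric pool against control. Over all genes in that comparison 5.16% were called higher and 1.06% lower, with a median of -0.02. Of 11 markers of satellite cells and regenerating fibres on the array, 7 entered and Myog was the 1 called, with sums of 7092.7 to 7162.2, 9174.2 to 9362.2 and 8026.1 to 8568.7. The part of these in the values of the junction genes was not tested.

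Markers of the nerve were mostly undetected. Of 11 motor axon and neuron markers on the array 7 were below the floor on all 6 arrays (Nefl, Nefm, Snap25, Syp, Syt1, Prph and Isl1) and 2 entered, Stmn2 and Uchl1, with 0 called. Uchl1 had 429.5 and 463.5 in the control pool and 209.4 and 425.3 in the eccentric pool, the lower value on eccentric A and not, as for Ache, on eccentric B. Of 8 Schwann cell and myelin markers 6 entered and 0 were called for eccentric against control, with a median of -0.18. For isometric against control Egr2, also an immediate early gene, was called higher, at 520.1 ± 100 against 222.2 ± 34.3. Over all genes 0.915% were called higher and 0.323% lower for isometric against control, and 5.16% and 1.06% for eccentric against control. Red blood cells also carry acetylcholinesterase: their 5 markers summed to 46074.1 to 60099.4 on control, 44170.4 to 48155.5 on eccentric and 39339.7 to 54599.2 on isometric arrays, with 0 called. Of 10 NK and T cell markers on the array, 7 were below the floor on all arrays and Cd4 was the 1 that entered. For eccentric against control 0 were called. Cd4 was called lower for isometric against control, at 80.0 ± 19.8 against 334.6 ± 178. Both isometric Cd4 signals (66.0 and 94.0) lay below the floor, and the control arrays stood apart at 460.2 and 208.9. The called log2 difference of -1.36 was thus one of floored values.

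The genes most like Ache over the 6 arrays were not members of the list. The 5 genes with the highest Pearson correlation of log2 signal with Ache among 6879 probe sets compared, were Mrps34 (0.985), Il27ra (0.982), Gucd1 (0.981), Tox4 (0.979) and Pkdcc (0.975). Their log2 differences for eccentric against control ran from -0.38 (Tox4) to -0.12 (Il27ra), set beside -1.42 for Ache. The 6 points are 3 pools, eccentric B is the lowest for Ache and for each of the 5, and 81 probe sets had a correlation of at least 0.9, so the ranking is a description of these arrays. Among the junction genes the highest correlation with Ache was that of Chrna1, at 0.617, and that of 92965_at of Chrne was 0.381.

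Arrays had nearly equal trimmed means of 500.3, medians of 187 to 197 and 61.2% to 63.2% of probe sets above the floor. For beta-actin, probe sets at both ends of the transcript give a measure of RNA integrity: the log2 signal at the 3' end exceeded that at the 5' end by 0.44 for eccentric, 0.04 for control and 0.21 for isometric RNA. For Gapdh the same measure was 0.12 for eccentric, -0.06 for control and 0.10 for isometric RNA. The isometric mean joined -0.07 on array A and 0.27 on array B, while the eccentric arrays had 0.12 and 0.13. The beta-actin value was 0.43 on eccentric A and 0.45 on eccentric B, so it did not separate the 2 arrays on which Ache differed. Its part in the differences between pools was not tested.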

How the data were processed

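The deposited values are linear intensities, 1 for each array, of 12488 probe sets. Trimmed means (2% removed at each end) were nearly equal, as in arrays scaled to one target, which makes every gene's value relative to all others. For software, background correction and probe summary the entry is: not given in the sources used here. The platform annotation named 1 gene for 10833 probe sets, several for 396 and none for 1193, and 66 were controls. Gene IDs of 10817 matched RefSeq, with 0 symbols changed.

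Arrays were rescaled to a common trimmed mean (factors up to 1.000022), floored at 120.8 and log2 transformed. The 2-fold rule was applied to all probe sets with 1 gene, and each probe set of a member was kept. Lists took each gene's brightest probe set. Each group is 1 pool, so no test of the contractions was possible. With 2 arrays per pool, their number limits the precision. Over 5642 probe sets, the A minus B differences correlated at 0.03 for control and eccentric and -0.04 for eccentric and isometric. For control and isometric the value was -0.14, so control A deviated weakly together with isometric B. The letters therefore did not pair arrays. The alternatives include 1 without control A and isometric B.

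limma 3.58.1 in R 4.3.3, with Benjamini-Hochberg adjustment at 0.05, was an alternative for counts of calls, which compares these pools and not the contractions. Others changed the scaling, floor, filter, threshold, probe set and arrays used. The call rule and limma were tested on simulated arrays with independent noise. That simulation held no variation between animals and placed changes only on probe sets well above the floor. The members and lists were chosen with earlier results of these data known. Named were every member, called genes of the other lists, a few preset genes and the 5 genes most like Ache. Genes named outside this rule (Itga7, Cdkn1a, Myh8, Myh3, the genes lowered by denervation and cell markers) were chosen after their values were seen. Python 3.11.15 with numpy 2.4.6, pandas 2.3.3 and matplotlib 3.10.9 was used.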

Additional observations from a re-analysis of the deposited data

How the results depend on the processing

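No alternative turned the direction of Ache in the eccentric pool. Leaving out 1 array at a time gave log2 differences of -2.10 to -0.75 against control and -2.29 to -0.94 against the isometric pool, and a floor at the 60th percentile gave -0.82 against control, under the 2-fold rule. Member probe sets called for eccentric against control numbered 0 with that floor, 1 with 1 probe set per gene, 1 without control A and isometric B together, and 1 to 2 with 1 array left out. For eccentric against isometric they numbered 2 at 1.5-fold, where Chrna1 passed, and 0 to 1 with 1 array left out. With the floor at the 20th percentile Chrnd (-0.47), 95639_at of Chrng (-0.75) and 161750_f_at of Ncam1 (0.93) entered the comparison of eccentric with control and were not called. limma, whose replicates are arrays of 1 pool, called 0 members for eccentric against control and 0 for eccentric against isometric, also with the array letter as replicate block. The log2 differences of Ache were the same in these fits (-1.42 and -1.61). Over all probe sets, calls for eccentric against control were 778, 208 and 1313 with the floor at the 20th and 60th percentile and at 1.5-fold, 439 to 579 with 1 array left out, and, of 6744 probe sets, 578 by limma and 296 with the block. For isometric against control they were 358, 26 and 435, then 107 to 250, 186 without both arrays, and 0 by limma with no block, with the block and with the isometric letters crossed, a setting chosen after seeing the data (690, 614 and 709 at unadjusted p under 0.05). For eccentric against isometric they were 435, 78 and 826, then 209 to 257, 244 without both arrays, 77 by limma and 9 with the block. Of the genes raised by denervation, 4 passed at 1.5-fold for isometric against control and 0 to 1 with 1 array left out. For eccentric against isometric 5 passed as higher at 1.5-fold, and with the block 0 as higher and 0 as lower. With 1 array left out 4 to 6 were higher for eccentric against control. The cause of these differences was not tested.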
